A study of Mus musculus with 18 samples.

Results

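The dermis of normal adult mouse skin was compared here with its epidermis, gene by gene, on 6 arrays: the 3 labelled as dermis and the 3 labelled as epidermis of wild-type mice, chosen by those labels among the 18 arrays of the series. The remaining 12 arrays held wild-type whole skin and the same tissues of K14NICDER transgenic mice, in which the active intracellular domain of Notch is expressed in basal keratinocytes under the keratin 14 promoter and is switched on by 4-hydroxytamoxifen (4OHT). The wild-type mice were females of a C57Bl6xCBA F1 background, aged 7 weeks at the start, and they too received 4OHT for 14 days, so the layers described are those of 4OHT-treated skin. RNA from each tissue was amplified and hybridised to Affymetrix mouse arrays, and the values are log2 MAS5 signals. The labels give neither the number of animals behind an array, nor whether a dermis and an epidermis array share an animal, nor how the layers were parted, so all p-values measure the spread between these arrays, which may be technical.

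Skin is a stratified epithelium, the epidermis, that rests on a connective tissue, the dermis. Keratinocytes divide in the basal layer of the epidermis, move outward and end as the dead, cross-linked and lipid-sealed cells of the cornified layer, while the dermis holds collagen-rich matrix made by fibroblasts, with vessels, nerves, macrophages and mast cells. Hair follicles and sebaceous glands are epithelial, yet they reach deep into the dermis, and the layers signal to each other through secreted growth factors.

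Krt14 and Dcn, classic markers of the layers, fell on the labelled side. Other classic epidermal genes, Krt5, Krt15, Krt1 and Trp63, were not called, and the Krt14 call was not firm (below). Krt14, the keratin of basal keratinocytes, read 13.03, 12.04 and 12.70 on the epidermis arrays against 11.46, 11.51 and 11.39 on the dermis arrays. Dcn, which encodes the dermal proteoglycan decorin, read 10.39, 11.03 and 10.96 on the dermis arrays against 7.38, 8.85 and 6.44 on the epidermis arrays. Neither layer lacked the other's markers: Col1a1, the main dermal collagen, read between 10.76 and 11.09 on the epidermis arrays. Pearson's r between arrays over the tested genes was 0.925 to 0.946 within dermis and 0.860 to 0.908 within epidermis. Epidermis replicate 2 stood apart, with r between 0.846 and 0.865 to the dermis arrays, against 0.717 to 0.815 for the other epidermis arrays, and counts that rest on it are given without it below. The median SD of a gene was 0.329 in dermis, 0.471 in epidermis and 0.177 in whole skin, and the summed signal held by the top 1% of probe sets ranged from 19.2% to 25.4% in dermis and from 22.9% to 33.8% in epidermis. A lower signal in bulk tissue can mean fewer cells of a type or less RNA per cell, and these cannot be told apart here.

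Across the transcriptome, more genes were higher in dermis than in epidermis, and by larger margins. Of 13739 genes tested, 2684 (19.5%) differed between the layers at an adjusted p of 0.05 in limma: 1746 (12.7%) were higher in dermis and 938 (6.83%) higher in epidermis. The dermal share of the calls was 65.1%, but it was 51.3% when each gene was given the mean of all its probe sets and 53.3% when each probe set was tested by itself. The median size of the difference was 1.86 on the log2 scale among genes higher in dermis and 1.48 among genes higher in epidermis. A difference of at least 3 was seen for 303 genes higher in dermis and 26 higher in epidermis, and a difference of at least 5 for 17 and 1. The median difference over all tested genes was 0.05. In 1738 of the genes called higher in dermis and 930 of those called higher in epidermis, all 3 arrays of the higher layer lay above all 3 of the other. Over all tested genes, the dermis arrays lay wholly above in 23.2%, the epidermis arrays wholly above in 16.8%, and the groups overlapped in 60%. Without epidermis replicate 2, 4040 genes were called, 2496 of them higher in dermis and 1544 higher in epidermis. The count fell to 1592 without dermis replicate 2, to 1253 without dermis replicate 3 and to 1649 without epidermis replicate 3.

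**Figure D1:**
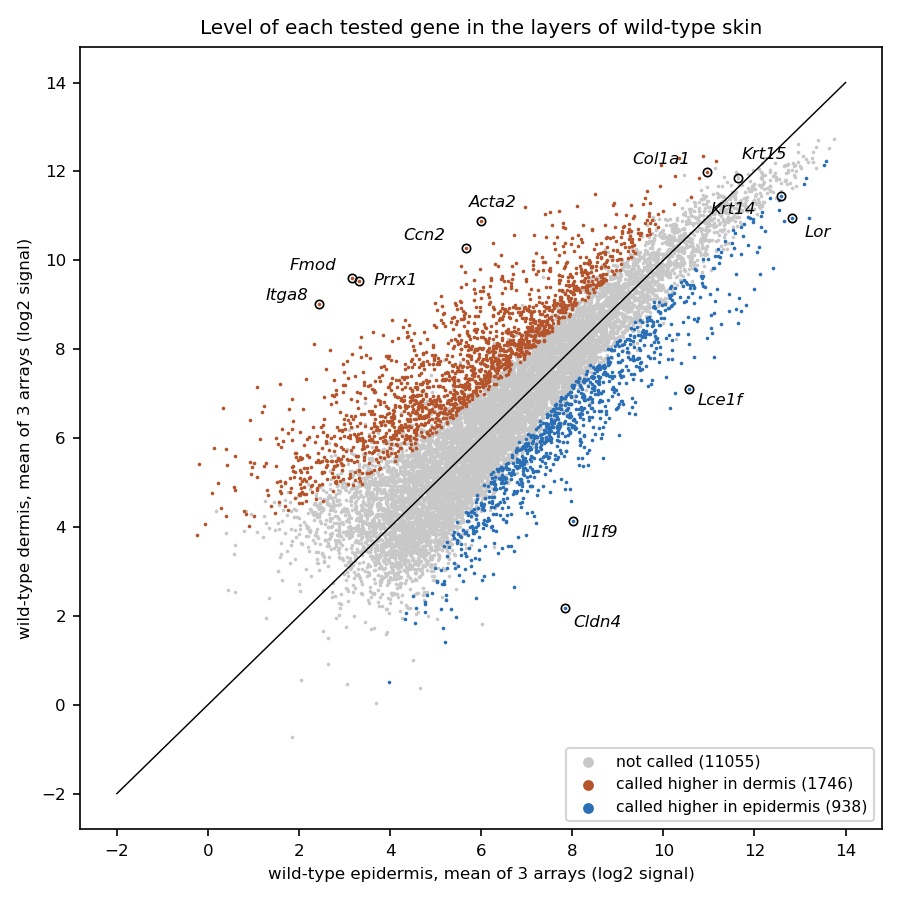
Mean log2 signal of each of the 13739 tested genes in wild-type epidermis (horizontal axis) and wild-type dermis (vertical axis), 3 arrays each, with 1746 genes called higher in dermis in orange, 938 called higher in epidermis in blue and the rest in grey. The dermal calls spread further from the diagonal (303 genes at a log2 difference of 3 or more) than the epidermal calls (26 genes), and points near the diagonal are the genes with little difference.

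On the 3 arrays of wild-type whole skin, the mean lay between the means of the layers in 61.2% of the genes called higher in dermis and in 61.7% of those called higher in epidermis. A wide gap between the layers holds a further mean more often by its width alone, so these shares are a description. Whole skin lay above both layers in 38.3% of the genes called higher in dermis and below both in 34.8% of those called higher in epidermis. Over all tested genes it lay between the layers in 33.8%, above both in 30.9% and below both in 35.4%.

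Genes of matrix, smooth muscle and macrophages were among those with the largest dermal differences. Of the 12 genes ranked highest after 16 was added to the linear signal, a step that damps differences against dim values, Fmod came first: fibromodulin, a small proteoglycan that binds collagen fibrils. It read 9.37, 9.79 and 9.62 on the dermis arrays and 4.26, 4.96 and 0.28 on the epidermis arrays. The groups did not overlap, and the epidermal values spread widely. The difference, dermis minus epidermis, was 6.43 ± 0.95 (log2, ± SE, n = 3 arrays a layer, limma adjusted p = 0.00164), and 4.69 with 16 added. The 5 other probe sets of Fmod differed by 2.0 to 5.87.

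Prrx1, a homeobox factor of limb and skin mesenchyme, read 9.50, 9.40 and 9.72 in dermis and 1.24, 5.35 and 3.36 in epidermis, a difference of 6.22 ± 0.78 (limma adjusted p = 0.000759). The dermis arrays agreed closely with each other and with whole skin, where Prrx1 read 9.68, 9.27 and 9.39. The 5 other probe sets of Prrx1 differed by less, 0.87 to 3.44. Acta2, the actin of smooth muscle, read 10.77, 11.27 and 10.59 in dermis and 6.0, 6.92 and 5.06 in epidermis, 4.88 ± 0.42 apart (limma adjusted p = 0.000178). Itga8, an integrin chain found on smooth muscle, read 8.97, 9.07 and 9.01 in dermis, and −0.12, 3.70 and 3.74 in epidermis. Dim probe sets scatter widely in MAS5, and the epidermal readings of Itga8 were dim, so its difference of 6.58 ± 0.85 was less certain in size than in direction, and it was 4.46 with 16 added.

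Ccn2, also called connective tissue growth factor, separated the layers with little scatter: 9.87, 10.33 and 10.63 in dermis against 5.72, 5.42 and 5.85 in epidermis, a difference of 4.61 ± 0.28 (limma adjusted p = 9.56e-05). Fstl1, a secreted follistatin-like protein, differed by 4.24 ± 0.48, and Coch, an extracellular protein best known from the inner ear, by 4.32 ± 0.33. Col5a2, a fibril-forming collagen chain that co-assembles with collagen I, differed by 4.10 ± 0.49. C1qc, a chain of complement C1q made by macrophages, read 7.78, 8.89 and 8.18 in dermis and 3.11, 4.71 and 2.23 in epidermis. The others of the 12 were the actin regulator Kank2 (4.13 ± 0.44), the ferritin receptor Scara5 (3.86 ± 0.44) and Wfdc17 (4.07 ± 0.32). In each of the 12, the 3 dermis arrays lay above the 3 epidermis arrays, as the rule for naming them required.

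**Figure D2:**
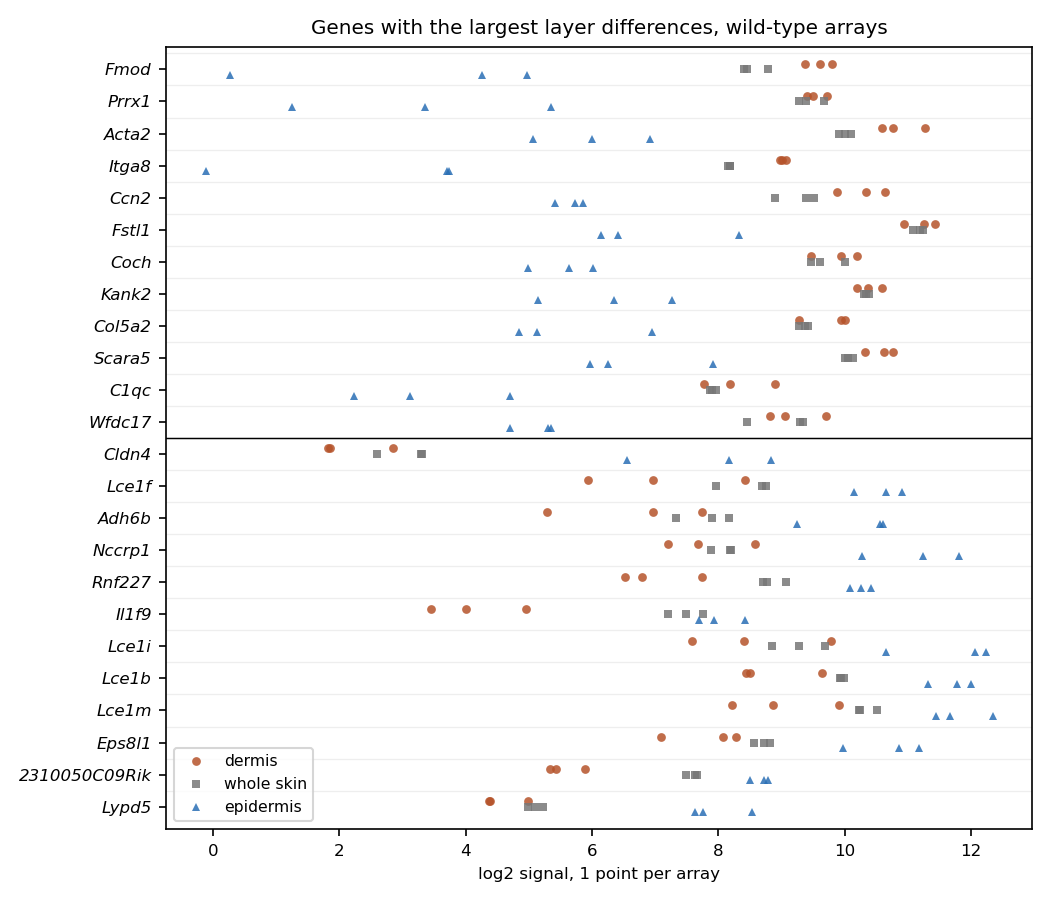
Log2 signal of the 12 genes with the largest differences in each direction, ranked after 16 was added to the linear signal, with 1 point per wild-type array (orange circles dermis, grey squares whole skin, blue triangles epidermis). Fmod reads 9.37 to 9.79 in dermis and 0.28 to 4.96 in epidermis, and Cldn4 reads 1.81 to 2.84 in dermis and 6.55 to 8.83 in epidermis, with whole skin between 2.60 and 3.31.

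On the epidermal side, Cldn4 showed the largest difference. It encodes claudin-4, a transmembrane protein of tight junctions, and read 8.83, 6.55 and 8.16 on the epidermis arrays and 1.81, 2.84 and 1.85 on the dermis arrays. Whole skin, with 3.31, 2.60 and 3.29, lay close to dermis. The difference was −5.68 ± 0.60 (limma adjusted p = 0.000356), or −3.59 with 16 added. Of the other 11 genes, 4 were Lce1 genes (Lce1f, Lce1i, Lce1b and Lce1m), which encode proteins of the cornified envelope. Lce1f read 10.91, 10.14 and 10.65 in epidermis and 8.42, 5.94 and 6.96 in dermis, a difference of −3.46 ± 0.51 (limma adjusted p = 0.0017).

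Il1f9, the gene of the cytokine interleukin-36 gamma, read 7.69, 8.42 and 7.93 in epidermis and 3.45, 4.01 and 4.96 in dermis. Unlike Cldn4, it read nearly as high in whole skin (7.20, 7.76 and 7.49) as in epidermis, and it differed by −3.87 ± 0.42 (limma adjusted p = 0.000425). Adh6b, an alcohol dehydrogenase gene, differed by −3.47 ± 0.57, Nccrp1, an F-box-like protein gene, by −3.28 ± 0.43, and Eps8l1, an actin regulator related to Eps8, by −2.86 ± 0.38. Rnf227, a RING finger gene, differed by −3.24 ± 0.32, and Lypd5, a Ly6-domain gene, by −3.40 ± 0.36. The last of the 12, 2310050C09Rik, named here only by its identifier, read 8.73, 8.79 and 8.51 in epidermis and 5.88, 5.43 and 5.34 in dermis, with little scatter in either layer (−3.13 ± 0.27).

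Genes of the cornified envelope and granular layer, the outermost living keratinocytes and the shell they form, were higher in epidermis as a group. Of 52 listed genes, 43 were bright enough to test, and 28 of these were called higher in epidermis, 1 in dermis and 14 in neither, with a median difference of −1.88 against 0.05 over all genes. Without epidermis replicate 2 the epidermal count was 31, and with each array left out in turn it lay between 22 and 32. The median level of the list was 9.62, 9.98 and 9.78 on the epidermis arrays, and 8.42, 6.75 and 7.99 on the dermis arrays. Dermis replicate 2 was the lowest of the 6 and replicate 1 the highest of dermis, so the granular signal in dermis itself varied by over 1 log2 unit.

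The promoters of a few of these genes are shown because 2 short motifs recur in them. They are RefSeq sequences of assembly GRCm38.p6, from 250 bases before to 50 after the annotated start, written 5′ to 3′ along the gene, and the capitals mark TATAAA, the core of the TATA box, and TGANTCA, the site of AP-1 (dimers of Fos and Jun proteins), on either strand. Ivl (chr3:92573686-92573985, minus strand), Lor (chr3:92083093-92083392, minus strand) and Flg (chr3:93273296-93273595, plus strand) encode involucrin, loricrin and filaggrin of the cornified layer. Cldn4 (chr5:134946885-134947184, minus strand) had the largest epidermal difference, while Prrx1 (chr1:163313601-163313900, minus strand) and Fmod (chr1:134037004-134037303, plus strand) had the largest dermal differences with 16 added, and are shown for contrast.
Ivl: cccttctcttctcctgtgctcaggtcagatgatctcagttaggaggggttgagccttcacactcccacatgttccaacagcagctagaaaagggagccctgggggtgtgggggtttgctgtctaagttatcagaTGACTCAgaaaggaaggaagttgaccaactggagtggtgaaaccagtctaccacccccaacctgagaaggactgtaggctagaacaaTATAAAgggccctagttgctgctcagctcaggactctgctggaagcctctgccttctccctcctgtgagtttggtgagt
Lor: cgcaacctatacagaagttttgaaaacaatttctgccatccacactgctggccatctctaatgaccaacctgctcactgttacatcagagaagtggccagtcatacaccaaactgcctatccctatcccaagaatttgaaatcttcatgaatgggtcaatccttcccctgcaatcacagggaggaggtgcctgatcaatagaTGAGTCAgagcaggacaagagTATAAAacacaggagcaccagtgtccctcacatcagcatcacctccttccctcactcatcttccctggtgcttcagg
Flg: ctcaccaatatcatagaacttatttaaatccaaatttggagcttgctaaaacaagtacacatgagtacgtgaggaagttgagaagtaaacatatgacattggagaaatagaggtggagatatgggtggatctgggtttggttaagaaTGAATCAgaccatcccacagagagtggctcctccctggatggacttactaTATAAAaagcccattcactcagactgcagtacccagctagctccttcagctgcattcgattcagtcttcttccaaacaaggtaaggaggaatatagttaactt
Cldn4: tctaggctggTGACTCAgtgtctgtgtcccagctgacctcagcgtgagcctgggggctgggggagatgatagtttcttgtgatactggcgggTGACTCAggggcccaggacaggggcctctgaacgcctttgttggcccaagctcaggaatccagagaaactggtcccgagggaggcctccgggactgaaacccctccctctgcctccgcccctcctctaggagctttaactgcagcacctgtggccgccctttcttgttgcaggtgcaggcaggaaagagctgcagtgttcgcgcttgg
Prrx1: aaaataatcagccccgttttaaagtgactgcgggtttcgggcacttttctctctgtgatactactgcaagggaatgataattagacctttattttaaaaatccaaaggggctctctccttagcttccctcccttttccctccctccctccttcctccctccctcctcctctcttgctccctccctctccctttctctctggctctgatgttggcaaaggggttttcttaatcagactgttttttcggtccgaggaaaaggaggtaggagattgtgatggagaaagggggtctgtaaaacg
Fmod: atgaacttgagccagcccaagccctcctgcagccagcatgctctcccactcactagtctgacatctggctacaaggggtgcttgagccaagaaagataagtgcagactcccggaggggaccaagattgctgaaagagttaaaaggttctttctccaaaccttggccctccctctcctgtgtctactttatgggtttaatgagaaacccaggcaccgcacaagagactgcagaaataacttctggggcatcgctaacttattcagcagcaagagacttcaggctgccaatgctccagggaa

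With positions counted back from the start, and given for the first letter of a match, TATAAA lay at −29 and the AP-1 letters at −116 in the Ivl window. In Lor they lay at −27 and −48, and in Flg at −53 and −103. Cldn4 held the AP-1 letters at −240 and −158 and no TATAAA, and the Prrx1 and Fmod windows held neither motif. TATAAA was found in 14 of the 36 tested cornified envelope genes with a promoter in the table (38.9%), against 7.84% of the 11007 tested genes with one and 14.2% of all 27025 promoters. The AP-1 letters were also found in 14 of the 36 (38.9%), against 5.41% and 7.92%. Among the 143 genes called higher in epidermis by at least 2 on the log2 scale, 18.9% held TATAAA and 13.3% the AP-1 letters. The 217 genes called higher in dermis by at least 3 held them in 14.3% and 5.99%. These shares describe letters in a window of 300 bases, 10 motifs were searched, and no binding was measured. The 36 cornified envelope promoters held a median of 48.2% G and C bases, against 60.3% over the tested genes. The part of this composition in the shares was not tested. The list includes gene families, so its promoters may not be independent.

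Lor, Ivl and Flg were each called higher in epidermis. Lor, the main protein of the envelope, read 13.41, 12.12 and 12.97 in epidermis and 11.65, 10.61 and 10.59 in dermis, a difference of −1.88 ± 0.40 (limma adjusted p = 0.00938, and 0.0516 without dermis replicate 2). Ivl, an early scaffold of the envelope, read 10.32, 9.97 and 9.90 against 7.62, 6.75 and 7.77, and differed by −2.69 ± 0.30 (limma adjusted p = 0.000479). Flg, whose product bundles keratin filaments, read 8.70, 8.63 and 8.63 against 6.67, 5.09 and 6.54, and differed by −2.55 ± 0.40 (limma adjusted p = 0.00213). For all 3 genes the arrays of the layers were fully separated, and the epidermal values of Flg were the tightest.

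Calm4, a calmodulin-like gene of differentiating keratinocytes, differed by −2.70 ± 0.23, Cnfn, which encodes cornifelin, by −2.95 ± 0.30, and Cdsn, which encodes corneodesmosin of the junctions that hold corneocytes together, by −1.80 ± 0.24. The exception of the list was Tgm5, a transglutaminase, which read 7.38, 8.36 and 8.21 in dermis and 7.01, 5.91 and 5.86 in epidermis, a difference of 1.72 ± 0.39 (limma adjusted p = 0.0126). Tgm5 was singled out after its value was seen. The other envelope transglutaminases tested, Tgm1 and Tgm3, were called higher in epidermis.

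Several of these genes sit side by side in the genome, in the epidermal differentiation complex. Among 13709 tested genes placed in RefSeq order, the longest run of neighbours called higher in epidermis had 8 genes: Ivl, Lce1a1, Lce1b, Lce1a2, Lce1c, Lce1d, Lce1f and Lce1g, with differences from −2.24 to −3.46. A further run of 4 held Lce1i, Kprp, Lce1l and 2310050C09Rik. Dermis replicate 1 often read highest of its group in these runs: Lce1d, for example, read 8.99, 6.60 and 7.76 in dermis and 10.12, 10.37 and 10.07 in epidermis. The Lce1 genes are near-identical copies, so a probe set may read several of them and their values are not independent. In all, runs of 3 or more neighbours numbered 16 in epidermis, with 57 genes, and 50 in dermis, with 163 genes. More genes were called in dermis (12.7%) than in epidermis (6.83%). Whether the runs exceed what these shares alone would give was not tested.

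Keratins of the interfollicular epidermis split. Of 14 listed, 13 were tested, 5 were called higher in epidermis (Krt10, Krt14, Krt77, Krt78 and Krt16), 1 higher in dermis (Krt6a) and 7 in neither, with a median difference of −1.0. Krt16, a keratin of activated keratinocytes, read 9.28, 7.67 and 6.62 in epidermis and 5.04, 4.88 and 5.12 in dermis, a difference of −2.84 ± 0.55 (limma adjusted p = 0.00658). Krt6a, which pairs with Krt16 in the follicle sheath and in wounds, went the other way, with 8.76, 9.01 and 9.02 in dermis and 7.80, 5.67 and 6.80 in epidermis (2.17 ± 0.45, limma adjusted p = 0.00843). The arrays of the layers did not overlap for either gene. Its close relative Krt6b, which may share probes with it, read 7.40, 4.38 and 3.92 in epidermis and 4.08, 1.64 and 1.44 in dermis and was not called (limma adjusted p = 0.0724). With each array left out in turn the epidermal count of the list lay between 2 (without dermis replicate 2, dermis replicate 3 or epidermis replicate 3) and 6, and the adjusted p of Krt77, another called member, rose to 0.0866.

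Among the keratins of the basal and suprabasal layers, Krt14 was called (−1.14 ± 0.30, limma adjusted p = 0.0247), but the call was lost without any of 5 of the 6 arrays, with an adjusted p of up to 0.0975. Krt10, the keratin of the suprabasal layers, differed by −1.28 ± 0.35 and had an adjusted p of up to 0.131 with 1 array left out. Krt5, the partner of Krt14, read 11.84, 11.60 and 12.05 in epidermis and 11.01, 11.36 and 10.98 in dermis (−0.72 ± 0.26, limma adjusted p = 0.0742). Krt15, a keratin of basal cells and of the follicle bulge, read 11.70, 11.54 and 11.65 in epidermis and 11.80, 12.15 and 11.62 in dermis, where the groups overlapped (0.22 ± 0.26, limma adjusted p = 0.555). Krt1 read 10.89, 11.92 and 11.76 in epidermis and 11, 9.87 and 10.72 in dermis and was not called (limma adjusted p = 0.08).

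Among genes that anchor basal cells to the basement membrane, limma called none of 14 tested higher in epidermis and 2 higher in dermis, Cd151 and Lama5, with a median difference of −0.13. Over all genes the shares were 6.83% and 12.7%. At an unadjusted p under 0.05 the counts were 2 in epidermis and 4 in dermis, and without epidermis replicate 2 the calls were 2 and 3. Lama5, a laminin chain of basement membranes, read 6.91, 7.25 and 6.65 in dermis and 4.24, 5.34 and 4.02 in epidermis (2.40 ± 0.42, limma adjusted p = 0.00366), while its other probe set differed by −0.98. The tetraspanin gene Cd151 differed by 1.07 ± 0.29, lost its call without any of 5 arrays (adjusted p up to 0.0922) and had other probe sets between −1.31 and 1.10.

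More junction genes were called higher in epidermis than in dermis. Over all genes the shares were 6.83% in epidermis and 12.7% in dermis. Of 12 desmosome genes tested, 3 were called higher in epidermis (Jup, Dsg1a and Pkp1) and 1 in dermis (Pkp2), and of 14 tight junction and connexin genes, 6 were called higher in epidermis and 1 in dermis (Cldn8). Jup, which encodes plakoglobin, read 11.64, 10.85 and 11.32 in epidermis and 8.50, 8.94 and 8.26 in dermis, a difference of −2.70 ± 0.29 (limma adjusted p = 0.000362). Gjb5, a connexin gene, read 9.48, 9.26 and 9.21 against 7.00, 6.95 and 6.76, with little scatter in either layer (−2.41 ± 0.23). Cgn, which encodes cingulin of the tight junction plaque, differed by −2.41 ± 0.33. Cldn8, by contrast, read 5.57, 5.72 and 6.69 in dermis and 3.82, 3.61 and 1.90 in epidermis (2.89 ± 0.61, limma adjusted p = 0.00932, and 0.0684 without dermis replicate 3). Cldn4 and Cldn8 thus lay on opposite sides, each without overlap between the layers. Pkp2, a plakophilin, differed by 1.45 ± 0.39, with an adjusted p of up to 0.1 with 1 array left out, and Pkp1 by −0.95 ± 0.24, with one of up to 0.107. Without epidermis replicate 2 the desmosome counts were 5 in epidermis and 2 in dermis.

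Enzymes that build the lipid seal of the cornified layer were called on the epidermal side in 8 of 19 tested genes (median −0.85). In a list of epidermal proteases, some of which shed the layer, and protease inhibitors, 9 of 19 were called there (median −1.40). The calls of this list include the serpin genes Serpinb5, Serpinb12 and Serpina12, and Wfdc5, as well as proteases. Cers3, which makes the ceramides of the barrier, read 9.61, 8.93 and 9.18 in epidermis and 7.30, 5.83 and 6.56 in dermis (−2.68 ± 0.37, limma adjusted p = 0.00116). Abca12, the transporter that loads lipid into lamellar granules, differed by −2.56 ± 0.47, and Alox12b, a lipoxygenase of the same pathway, by −2.15 ± 0.40. Sgms2, a sphingomyelin synthase, was 1 of the 2 lipid genes called higher in dermis (2.29 ± 0.38, limma adjusted p = 0.00296). Among the proteases, Klk7, a kallikrein that cuts corneodesmosin, read 11.11, 11.09 and 10.93 in epidermis and 8.61, 8.13 and 8.72 in dermis (−2.56 ± 0.25, limma adjusted p = 0.000263). Klk5, which activates it, differed by −2.48 ± 0.31, and St14, which encodes matriptase, by −1.33 ± 0.25. No gene of the protease and inhibitor list was called higher in dermis, at an unadjusted p under 0.05 either. Without dermis replicate 2 the epidermal count of lipid genes fell to 4, and the dermal count was 1 with any array other than epidermis replicate 2 left out.

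Transcription factors of the epidermis were called higher there in 7 of 21 tested genes and in dermis in none (1 at an unadjusted p under 0.05), with a median of −0.95. Gata3 read 9.66, 9.41 and 9.53 in epidermis and 7.97, 7.52 and 7.17 in dermis (−1.98 ± 0.27, limma adjusted p = 0.00103). Dlx3, a homeobox gene of differentiating keratinocytes, read 7.86, 8.16 and 7.52 against 3.37, 5.68 and 5.53 (−2.99 ± 0.55). Klf5 (−1.95 ± 0.30), Ovol1 (−1.78 ± 0.29) and Grhl1 (−1.28 ± 0.24) were called as well. Trp63, the master factor of stratified epithelia, read 10.64, 10.92 and 11.14 in epidermis and 10.62, 10.34 and 10.48 in dermis and was not called (−0.42 ± 0.24, limma adjusted p = 0.238). Its 3 other probe sets differed by −1.84 to −0.91.

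**Figure D3:**
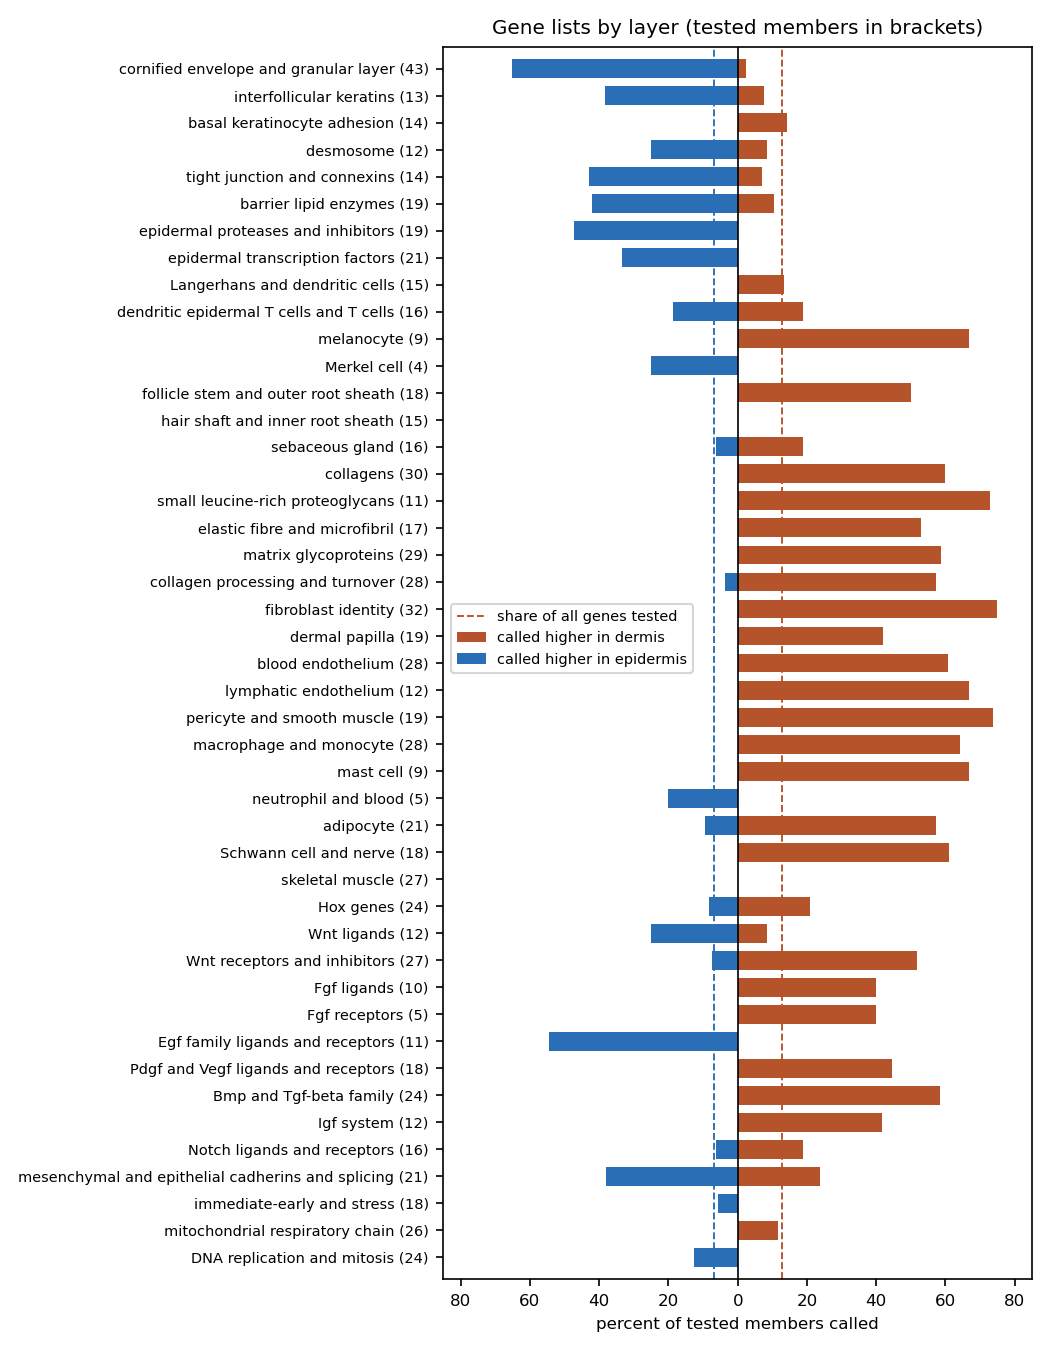
Share of the tested members of 45 gene lists called higher in dermis (orange, to the right) or in epidermis (blue, to the left), in percent, with the number tested in brackets and the shares over all tested genes (12.7% and 6.83%) as dashed lines. Matrix, vascular, macrophage and mast cell lists lie to the right, lists of keratinocyte differentiation to the left, and the skeletal muscle and hair shaft lists have no call.

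In each of 5 matrix lists the called genes lay in dermis, with 1 exception. Of 30 collagen genes, 18 were called higher in dermis and none in epidermis, with a median of 1.45, and of 11 small leucine-rich proteoglycans 8 were, with a median of 2.99. Elastic fibre genes were called higher in dermis in 9 of 17 and matrix glycoproteins in 17 of 29, none of either in epidermis. Of 28 genes of collagen processing and turnover, 16 were higher in dermis and 1, the gelatinase gene Mmp9, in epidermis. Without epidermis replicate 2 the dermal counts of these 5 lists were 19, 8, 9, 19 and 16, and without dermis replicate 2 the last fell to 8. In the first 4 lists no gene lay higher in epidermis at an unadjusted p under 0.05.

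The most abundant collagens of dermis did not show the largest differences. Col1a1 read 12.27, 12.09 and 11.59 in dermis and 11.04, 11.09 and 10.76 in epidermis, a difference of 1.02 ± 0.27 (limma adjusted p = 0.0251), with an adjusted p of up to 0.101 with 1 array left out. Col1a2 differed by 1.96 ± 0.45 and Col3a1 by 1.47 ± 0.35, with adjusted p of up to 0.0554 and 0.0661. Their other probe sets differed by 0.37 to 2.62 for Col1a2, 2.37 for Col1a1 and 3.52 for Col3a1. Col8a2, a short-chain collagen of sheet-like networks, read 7.32, 7.61 and 7.72 in dermis and 2.96, 3.20 and 1.62 in epidermis (4.95 ± 0.48, limma adjusted p = 0.000273). The collagen VI chains Col6a1 and Col6a2, which form beaded filaments, differed by 2.59 ± 0.35 and 2.57 ± 0.31, and the minor fibrillar chain Col5a1 by 2.63 ± 0.31.

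Among the proteoglycans, Ogn, which encodes osteoglycin, read 8.06, 8.19 and 8.48 in dermis and 4.25, 4.32 and 3.92 in epidermis, tight values in both layers (4.08 ± 0.31, limma adjusted p = 0.000137). Dcn differed by 3.23 ± 0.50 (limma adjusted p = 0.00212), Bgn, which encodes biglycan, by 3.04 ± 0.39, and Aspn and Prelp by 2.99 ± 0.44 and 2.57 ± 0.36. Ltbp2, a microfibril protein, read 7.83, 7.72 and 7.22 in dermis and 3.66, 3.34 and 4.42 in epidermis (3.79 ± 0.39, limma adjusted p = 0.000334). Fbln5, a fibulin needed for elastic fibre assembly, differed by 3.86 ± 0.66 and Mfap4 by 3.16 ± 0.40. Lox, the enzyme that cross-links collagen and elastin, differed by 1.98 ± 0.34.

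Basement membrane components made largely by mesenchyme were on the dermal side: Lamb1 (2.79 ± 0.28), Nid1 (2.80 ± 0.34) and Lama2 (2.17 ± 0.27). The 2 other probe sets of Lamb1 differed by 0.03 and 2.17, and the other of Nid1 by 1.67. Pcolce and Pcolce2, which speed the trimming of procollagen, differed by 3.68 ± 0.41 and 3.71 ± 0.36. Timp2, an inhibitor of matrix proteases, read 10.70, 10.77 and 10.70 in dermis and 7.34, 8.43 and 7.73 in epidermis (2.89 ± 0.29, limma adjusted p = 0.000303). Mmp2, a gelatinase of fibroblasts, differed by 3.01 ± 0.38 and Adamts5, which cleaves proteoglycans, by 3.08 ± 0.38. The gelatinases thus lay on opposite sides, since Mmp9 read 6.23, 6.02 and 6.53 in epidermis and 5.43, 4.56 and 5.05 in dermis (−1.25 ± 0.37, limma adjusted p = 0.0388). Mmp9 was not called without epidermis replicate 1 or 3 or dermis replicate 2 or 3.

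Fibroblast identity genes followed the matrix. Of 39 listed, 32 were tested, 24 were called higher in dermis and none in epidermis, with a median of 2.38, and the count was 25 without epidermis replicate 2. The median level of the list was 7.76, 7.87 and 8.20 on the dermis arrays, and 5.57, 5.67 and 5.44 on the epidermis arrays. Epidermis replicate 2 was thus close to its group in this list. Pdgfra, the receptor that marks fibroblasts, read 8.60, 8.79 and 8.90 in dermis and 5.98, 6.80 and 5.99 in epidermis (2.51 ± 0.29, limma adjusted p = 0.000566). Its 2 other probe sets differed by 0.41 and 2.34. Dpt, which encodes dermatopontin, differed by 3.41 ± 0.28 and Twist1, a factor of mesenchyme, by 2.72 ± 0.32. Vim, the intermediate filament of mesenchymal cells, differed by only 1.06 ± 0.28, with an adjusted p of up to 0.0944 with 1 array left out.

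The dermal papilla, the cluster of mesenchymal cells that instructs the hair follicle, was on the dermal side in 8 of 19 tested genes and on the epidermal side in none (median 1.49). Lepr, the leptin receptor, read 9.21, 8.68 and 8.99 in dermis and 5.12, 5.73 and 4.59 in epidermis (3.81 ± 0.34, limma adjusted p = 0.000178), though 1 of its 3 other probe sets differed by −1.75. Trps1, a zinc finger factor, differed by 3.36 ± 0.42, Rspo1, a secreted enhancer of Wnt signalling, by 2.28 ± 0.34, and Hey1, a Notch target gene, by 2.41 ± 0.45.

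Vessel genes that were called lay in dermis. Of 28 blood endothelial genes tested, 17 were called higher in dermis, as were 8 of 12 lymphatic and 14 of 19 pericyte and smooth muscle genes, and none of the 3 lists had a gene called higher in epidermis. Their medians were 2.0, 1.54 and 3.35. The blood endothelial count fell to 9 without dermis replicate 2 or 3, and the lymphatic count to 5 without dermis replicate 2. Erg, a factor of endothelial cells, read 7.06, 6.54 and 7.82 in dermis and 0.47, 1.26 and 1.47 in epidermis (6.07 ± 0.58, limma adjusted p = 0.000263). The epidermal readings were dim, and with 16 added the difference was 3.12. The other probe set of Erg differed by 1.6. Aplnr, the apelin receptor, read 9.12, 9.22 and 8.28 against 5.32, 5.29 and 4.47 (3.85 ± 0.36), and Kdr, the main receptor for Vegf, differed by 4.28 ± 0.64, or 2.0 with 16 added. The classic marker Pecam1 read 5.66, 6.55 and 6.31 in dermis and 4.64, 4.61 and 3.52 in epidermis (1.92 ± 0.45, limma adjusted p = 0.0154, and up to 0.0784 without dermis replicate 2 or 3).

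Among lymphatic genes, Reln, which encodes reelin, read 8.75, 8.58 and 8.37 in dermis and 5.18, 5.36 and 5.79 in epidermis (3.12 ± 0.28, limma adjusted p = 0.000236). Nrp2, a co-receptor for Vegfc, differed by 2.31 ± 0.26, and Pdpn, which encodes podoplanin and is also made by keratinocytes and fibroblasts, by 1.98 ± 0.31. Of the smooth muscle genes, Mylk, the myosin light chain kinase, read 11.10, 11.16 and 10.84 in dermis and 7.71, 7.58 and 6.90 in epidermis (3.64 ± 0.27, limma adjusted p = 0.000137). Myh11, smooth muscle myosin, differed by 3.81 ± 0.33, although its other probe set differed by −0.48. Rgs5, a marker of pericytes, differed by 3.18 ± 0.26. Smooth muscle in skin includes the arrector muscles of the hairs as well as vessel walls, and the list does not part them.

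Resident immune cells of the dermis showed clearly. Macrophage and monocyte genes were called higher in dermis in 18 of 28 tested and in epidermis in none (median 1.96), and mast cell genes in 6 of 9 (median 2.36). The mast cell calls include Kit, which is also in the melanocyte list. Mrc1, the mannose receptor, read 10.36, 10.80 and 10.54 in dermis and 6.98, 8.28 and 6.24 in epidermis (3.40 ± 0.44, limma adjusted p = 0.000821). Cd163, a scavenger receptor of tissue macrophages, differed by 2.84 ± 0.34 and C1qb by 2.99 ± 0.33. Cpa3, the carboxypeptidase of mast cell granules, read 7.40, 8.59 and 7.93 against 3.96, 5.88 and 3.72 (3.45 ± 0.55, limma adjusted p = 0.00244). The mast cell protease gene Mcpt4 differed by 2.64 ± 0.59, with an adjusted p of up to 0.053 with 1 array left out, and the mast cell count fell to 1 without dermis replicate 2 or 3.

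The longest runs of neighbouring genes called higher in dermis, 5 genes each, were both families expressed by myeloid cells. The first held Clec4g, Cd209a, Cd209e, Cd209d and Cd209b, relatives of the lectin DC-SIGN, with differences of 2.38 to 4.47. The second held Ms4a6c, Ms4a6b, Ms4a4d, Ms4a6d and Ms4a2, of which Ms4a2 is the beta chain of the mast cell IgE receptor, with differences of 2.45 to 3.13; the adjusted p of Ms4a2 rose to 0.0605 without dermis replicate 2 or 3. Ms4a4d read 8.87, 8.87 and 9.12 in dermis and 5.62, 6.75 and 5.58 in epidermis (2.97 ± 0.34, limma adjusted p = 0.000483). In these families dermis replicate 1 was usually the lowest of its group: Cd209b read 5.52, 8.16 and 7.58 in dermis and 4.39, 4.48 and 4.57 in epidermis. Members of such families can share probe signal, and 9 further runs of 4 genes tied for the next place.

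The immune cells of the epidermis were less clearly divided. Mouse epidermis houses Langerhans cells and dendritic epidermal T cells. Of 15 Langerhans and dendritic genes tested, none was called higher in epidermis and 2 in dermis, near the 12.7% of all genes: the costimulatory gene Cd86 and the class II gene H2-Aa. At an unadjusted p under 0.05 the counts were 3 and 4, and without epidermis replicate 2 the calls were 1 and 4. Cd207, which encodes langerin, read 5.71, 6.30 and 5.65 in epidermis and 4.66, 4.99 and 5.09 in dermis (−0.97 ± 0.37, limma adjusted p = 0.0901). Its groups did not overlap. Cd74, the invariant chain of class II molecules, overlapped between the layers (0.16 ± 0.33). H2-Aa differed by 0.82 ± 0.25, with an adjusted p of up to 0.131 with 1 array left out, and Cd86 by 1.80 ± 0.36.

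T cell genes were called on both sides, 3 of 16 on each, against 12.7% of all genes in dermis and 6.83% in epidermis. The dermal calls were Cd4, Ptprc and Thy1, of which Thy1 is also counted in the fibroblast identity list. The dermal calls fell to 0 without dermis replicate 2 or 3. Cd3e, a chain of the T cell receptor complex, read 9.09, 8.37 and 8.73 in epidermis and 7.04, 6.56 and 6.25 in dermis (−2.11 ± 0.30, limma adjusted p = 0.00139). Il2rb, an interleukin receptor chain of lymphocytes, differed by −2.23 ± 0.52 and Cd3d by −1.48 ± 0.37, the last with an adjusted p of up to 0.0798 with 1 array left out. Cd4, the marker of helper T cells that is absent from the usual epidermal T cells, read 4.10, 6.06 and 5.22 in dermis and 1.61, 2.35 and 1.69 in epidermis (3.24 ± 0.71, limma adjusted p = 0.0111, and up to 0.0888 with 1 array left out), though its other probe set differed by −2.37. Ptprc, the pan-leukocyte gene Cd45, differed by 1.56 ± 0.41, with an adjusted p of up to 0.0949 and another probe set at −0.37.

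**Figure D4:**
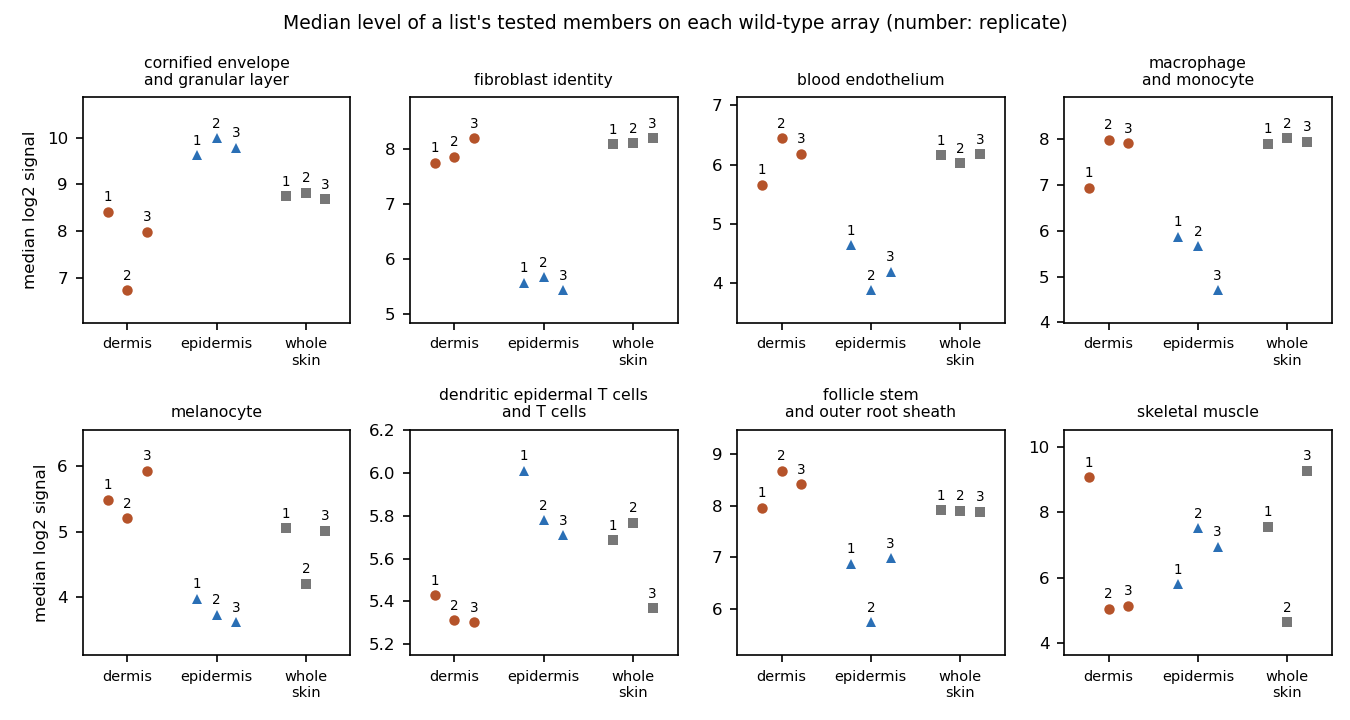
Median log2 signal of the tested members of 8 lists on each wild-type array, with the replicate number above each point (orange circles dermis, blue triangles epidermis, grey squares whole skin). Fibroblast medians are 7.76 to 8.20 in dermis and 5.44 to 5.67 in epidermis. The skeletal muscle medians, 9.07, 5.05 and 5.14 in dermis and 5.80, 7.51 and 6.94 in epidermis, vary widely within each layer and overlap between the layers.

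Lists of the skin appendages differed in their calls. Of 18 genes of follicle stem cells and the outer root sheath tested, 9 were called higher in dermis and none in epidermis (median 1.10). Some of these calls are counted in other lists too: Cd34 with the fibroblasts, Postn with the matrix glycoproteins, and Lgr5 and Dkk3 with the Wnt genes. Krt15, also a member, was not called. Cd34, a marker of bulge stem cells in the mouse that vessels and fibroblasts also carry, read 7.80, 9.14 and 8.61 in dermis and 5.89, 5.41 and 4.33 in epidermis (3.31 ± 0.45, limma adjusted p = 0.00108). Lhx2, a homeobox factor of the follicle, read 7.67, 8.12 and 7.64 against 5.68, 3.92 and 5.29 (2.84 ± 0.44), and Fgf18, a growth factor of resting follicles, 9.12, 9.81 and 9.03 against 5.66, 5.57 and 6.86 (3.29 ± 0.38). Sox9 differed by 1.48 ± 0.27, while its other probe sets differed by −0.19 and 0.92. Of the hair shaft and inner root sheath, 15 of 29 listed genes were tested and limma called none (2 in dermis and 1 in epidermis at an unadjusted p under 0.05), with a median of −0.77. Without epidermis replicate 1, 2 were called higher in dermis.

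Melanocyte genes were higher in dermis in 6 of 9 tested and in epidermis in none (median 2.36). The calls were Dct, Tyrp1, Mlana, Mitf, Sox10 and Kit. Sox10 is also in the Schwann cell list and Kit in the mast cell list. The difference of Kit (2.36 ± 0.62) is the median of both lists that hold it. Its limma adjusted p rose to 0.0961 with 1 array left out. In furred mouse skin most melanocytes lie in the hair follicles. Dct, an enzyme of melanin synthesis, read 6.63, 6.89 and 7.42 in dermis and 1.98, 2.85 and 3.61 in epidermis (4.17 ± 0.51, limma adjusted p = 0.000656), and Mitf, the lineage factor, 9.10, 9.53 and 9.48 against 6.23, 6.82 and 6.89 (2.72 ± 0.27, with another probe set at −0.21). Tyrp1 and Mlana were called too, yet their epidermal values spread from −0.98 to 3.97 and from −0.96 to 0.68, and their adjusted p rose to 0.124 and 0.197 with 1 array left out. The melanocyte count fell to 2 without dermis replicate 1, 2 or 3 in turn. Of 16 sebaceous gland genes, 3 were called higher in dermis (Pparg, Mgst1 and Far1) and 1 in epidermis (Dgat2), with a median of 0.33. Over all genes the shares were 12.7% and 6.83%, and the layers overlapped for Far1. Another probe set of Mgst1 differed by −0.63, and the adjusted p of Far1 and Dgat2 rose to 0.173 and 0.0933 with 1 array left out. For Merkel cells, 4 of 10 listed genes were testable, with a median of 0.38. Chga, which encodes chromogranin A, was called higher in epidermis (−3.47 ± 0.74, or −1.71 with 16 added). At an unadjusted p under 0.05 the counts were 1 in epidermis and 1 in dermis, and so were the calls without epidermis replicate 2.

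Fat and nerve lay with the dermis. Adipocyte genes were called higher in dermis in 12 of 21 tested and in epidermis in 2, Cebpa and Dgat2, the latter with an adjusted p of up to 0.0933 with 1 array left out (median 2.16). Adipoq, which encodes adiponectin, read 8.12, 8.78 and 8.66 in dermis, 6.80, 5.42 and 4.64 in epidermis and 9.60, 9.13 and 9.91 in whole skin, which was higher than either layer. The layer difference was 2.90 ± 0.48 (limma adjusted p = 0.00288). Lep, the leptin gene, read 7.92, 7.33 and 9.34 in whole skin, 6.69, 7.37 and 7.92 in dermis and 1.83, 4.04 and 0.58 in epidermis. Schwann cell and nerve genes were called higher in dermis in 11 of 18 tested and in epidermis in none (median 2.19). Sox10 is counted here and in the melanocyte list. Pmp22, a protein of peripheral myelin, read 9.65, 10.05 and 9.88 in dermis and 5.79, 7.12 and 6.20 in epidermis (3.49 ± 0.34, limma adjusted p = 0.000273). Mbp differed by 3.62 ± 0.31, but its 7 other probe sets ranged from −2.66 to 4.22.

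Genes of growth factors and their receptors were called on different sides by family. In the Egf family, 6 of 11 tested genes were called higher in epidermis and none in dermis (median −1.24). At an unadjusted p under 0.05, 1 was higher in dermis. The calls were the ligand genes Tgfa, Ereg, Btc, Hbegf and Epgn and the receptor gene Erbb2. Tgfa read 8.49, 7.38 and 8.50 in epidermis and 5.71, 5.59 and 5.33 in dermis (−2.58 ± 0.35, limma adjusted p = 0.00107). Ereg, Btc and Epgn are neighbours in the genome and formed a run of 3 calls, with differences of −2.67 ± 0.43, −2.36 ± 0.38 and −1.33 ± 0.31. Btc read 8.02, 9.13 and 8.63 in epidermis and 6.92, 5.84 and 5.95 in dermis. The adjusted p of Epgn rose to 0.0687 with 1 array left out. Hbegf differed by −2.36 ± 0.45, and the receptor gene Egfr itself overlapped between the layers (0.97 ± 0.43, limma adjusted p = 0.138).

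The interleukin-36 cytokines were also on the epidermal side. The run of 6 neighbours higher in epidermis held Il1f8, Il1f9, Il1f6 and Il1f5, which encode the interleukin-36 cytokines and their antagonist, then Il1rn, the interleukin-1 receptor antagonist, and Psd4. Il1f8 read 6.54, 7.18 and 5.94 in epidermis and 4.59, 3.80 and 4.02 in dermis (−2.42 ± 0.44, limma adjusted p = 0.00445). Il1f6 read 6.0, 5.66 and 5.65 against 3.66, 3.72 and 2.38 (−2.52 ± 0.52). The antagonist gene Il1f5 read 8.05, 8.67 and 8.23 in epidermis, 7.27, 5.79 and 6.69 in dermis and 8.67, 8.79 and 8.27 in whole skin (−1.74 ± 0.37, limma adjusted p = 0.0103). Il1rn read 8.52, 9.40 and 8.84 in epidermis and 7.34, 6.45 and 7.31 in dermis (−1.89 ± 0.33, limma adjusted p = 0.00385). Agonists and antagonists thus lay on the same side, and in none of these 5 did the layers overlap.

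In the Wnt pathway, ligands and receptors were placed differently. Of 12 ligand genes tested, 3 were called higher in epidermis (Wnt4, Wnt7b and Wnt16) and 1 in dermis (Wnt5b), with a median of −0.89, while of 27 receptors, enhancers and inhibitors 14 were called higher in dermis and 2 in epidermis (median 1.29). Wnt4 read 7.33, 6.99 and 6.80 in epidermis and 5.91, 5.93 and 5.38 in dermis (−1.30 ± 0.31, limma adjusted p = 0.0166). The adjusted p rose to 0.0816 for Wnt4, 0.106 for Wnt7b and 0.0798 for Wnt16 with 1 array left out, and the epidermal count of ligands lay between 0 (without dermis replicate 3) and 5 (without epidermis replicate 2). Fzd2, a Wnt receptor, read 9.94, 9.54 and 9.79 in dermis and 6.88, 6.59 and 7.31 in epidermis (2.83 ± 0.27, limma adjusted p = 0.000263). Fzd1 differed by 2.25 ± 0.23 and Fzd7 by 2.96 ± 0.41, the latter with another probe set at −1.21. Of the 2 called higher in epidermis, Fzd10 and Ryk, Fzd10 read 8.48, 7.15 and 8.20 there against 5.47, 4.94 and 4.17 in dermis (−3.08 ± 0.44, limma adjusted p = 0.00137). This epidermal count was 1 without dermis replicate 1 or 3 or epidermis replicate 1 or 3. Wnt5a, known as a mesenchymal ligand, was not called (−0.64 ± 0.26, limma adjusted p = 0.109).

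Fgf ligands lay in dermis in 4 of 10 tested genes and in epidermis in none (median 1.53), and the dermal count fell to 2 without dermis replicate 1, 2 or 3 in turn. Fgf7, the fibroblast-made growth factor for keratinocytes, read 7.57, 6.73 and 6.57 in dermis and 5.0, 4.10 and 4.70 in epidermis (2.36 ± 0.40, limma adjusted p = 0.00329). Fgfr2, whose epithelial form is the receptor for Fgf7, overlapped between the layers (10.48, 10.67 and 10.49 in dermis, 8.33, 10.55 and 9.68 in epidermis, limma adjusted p = 0.134). The 2 probe sets of Fgfr2 differed in sign, the other being at −1.27, and gene-level signal does not part its epithelial and mesenchymal forms. Of 5 receptor genes, Fgfr1 and Fgfrl1 were called higher in dermis and none higher in epidermis (1 at an unadjusted p under 0.05). Fgfr1 read 8.10, 8.44 and 8.12 in dermis and 5.49, 5.39 and 5.37 in epidermis (2.80 ± 0.27, limma adjusted p = 0.000263). Fgf10, a close relative of Fgf7, was not called (1.49 ± 0.76, limma adjusted p = 0.183).

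The Bmp and Tgf-beta family was dermal in 14 of 24 tested genes and epidermal in none (median 2.15). Tgfb2 read 7.95, 8.47 and 8.25 in dermis and 4.65, 5.56 and 4.22 in epidermis (3.41 ± 0.38, limma adjusted p = 0.000446). Grem1, a secreted Bmp inhibitor, differed by 3.50 ± 0.52, Bmp2 by 1.88 ± 0.29, and the receptor gene Tgfbr2 by 2.52 ± 0.39. Bmp4 overlapped between the layers (0.46 ± 0.31, limma adjusted p = 0.313). Igf system genes were called higher in dermis in 5 of 12, or 3 without epidermis replicate 3, and in epidermis in none. Igf1, a growth factor made by fibroblasts among other cells, read 9.29, 9.79 and 9.29 in dermis and 5.18, 6.41 and 5.39 in epidermis (3.80 ± 0.35, limma adjusted p = 0.000243). Igfbp7 and Igfbp6, which bind Igfs, differed by 3.11 ± 0.38 and 3.38 ± 0.47. Pdgf and Vegf ligands and receptors were called higher in dermis in 8 of 18, or 5 without dermis replicate 3, and in epidermis in none. Pdgfrb, a pericyte and fibroblast receptor, was at 3.22 ± 0.26, with its other probe set at 0.70, and Nrp1 at 2.60 ± 0.29.

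**Figure D5:**
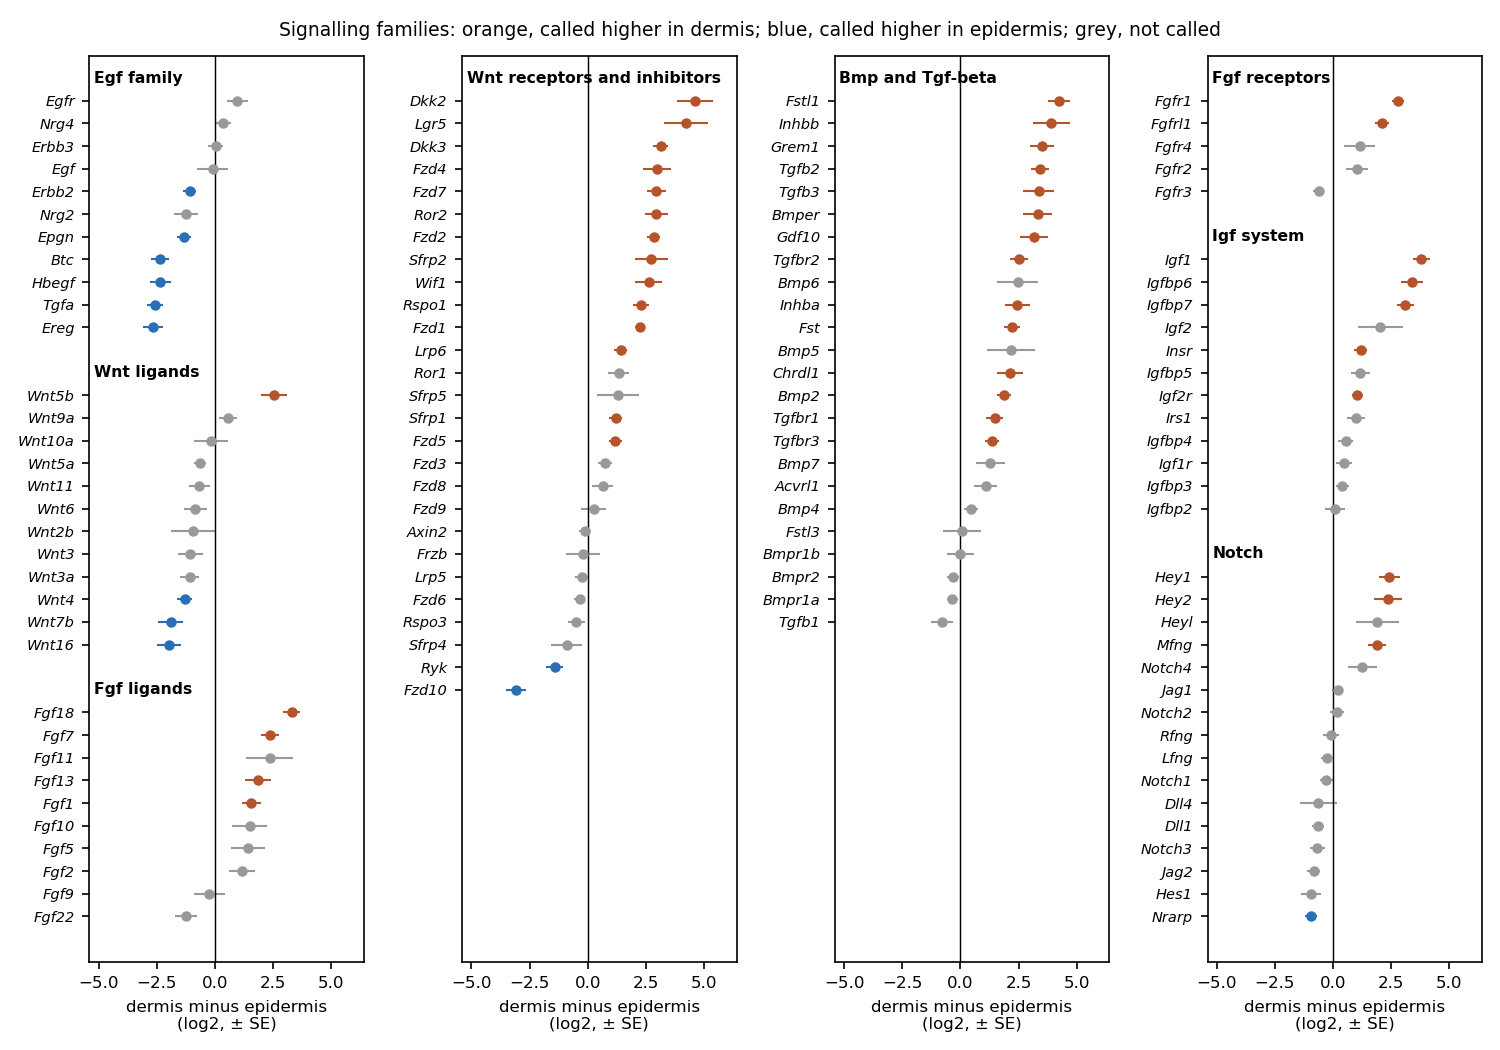
Dermis minus epidermis in log2 (points, bars ± SE, from 3 wild-type arrays a layer) for each tested gene of 8 signalling lists, in orange where called higher in dermis, blue where called higher in epidermis and grey where not called. Egf family calls lie left of 0 (Ereg at −2.67), Bmp and Tgf-beta calls to the right of it (Tgfb2 at 3.41), and Wnt ligands and Wnt receptors lean to opposite sides.

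The Notch pathway, which the study engages in its transgenic mice, was nearly even between the layers of wild-type skin. Of 16 genes tested, 3 were called higher in dermis (Hey1, Hey2 and Mfng) and 1 in epidermis (Nrarp), 4 of 16 against 19.5% of all genes in either direction, with a median of −0.17. Notch1 read 8.34, 8.53 and 8.03 in epidermis and 7.58, 8.31 and 8.10 in dermis (−0.30 ± 0.28, limma adjusted p = 0.456), while its other probe set differed by −1.66. The ligand gene Jag2 read 6.88, 7.41 and 7.18 in epidermis and 6.39, 6.44 and 6.15 in dermis and was not called (limma adjusted p = 0.0646), with its other probe set at 0.84. Nrarp, a target and feedback inhibitor of the pathway, differed by −0.96 ± 0.25, with an adjusted p of up to 0.0872 with 1 array left out. The fringe gene Mfng differed by 1.89 ± 0.40, with one of up to 0.052, and Hey2, a target active in vessels, by 2.36 ± 0.59, with one of up to 0.125. Without dermis replicate 3 the pathway had 1 call, in dermis.

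Hox genes, which record position along the body, were mostly even: 5 of 24 tested were called higher in dermis and 2 in epidermis, with a median of 0.03. Over all genes the shares were 12.7% and 6.83%. With 1 array left out, the counts lay between 3 and 8 in dermis and between 1 and 3 in epidermis. Hoxd8 read 9.65, 9.51 and 9.41 in dermis and 6.67, 6.28 and 6.54 in epidermis (3.03 ± 0.24, limma adjusted p = 0.000145). Hoxc10 differed by 2.60 ± 0.35 and Hoxd9 by 1.98 ± 0.29. Hoxa3 and Hoxa7 were higher in epidermis, and Hoxa3 read 9.63, 8.88 and 9.47 there and 8.16, 7.98 and 7.41 in dermis (−1.47 ± 0.30, limma adjusted p = 0.00759). Hoxd8, Hoxd9 and Hoxa3 were each separated without overlap, the last in the opposite direction.

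Of 21 genes that mark epithelial or mesenchymal cells, 8 were called higher in epidermis and 5 in dermis, the first fewer (5) without dermis replicate 2 or 3 or epidermis replicate 1. The dermal calls were Cdh2, Cdh11, Zeb1, Zeb2 and Vim, the last with an adjusted p of up to 0.0944 with 1 array left out. Rab25, an epithelial trafficking gene, read 8.71, 8.12 and 7.82 in epidermis and 6.30, 6.56 and 6.77 in dermis (−1.67 ± 0.30, limma adjusted p = 0.00448). Cdh1, which encodes E-cadherin, differed by only −0.96 ± 0.30 (limma adjusted p = 0.0495, and up to 0.177 with 1 array left out). Cdh11, a cadherin of fibroblasts, read 8.09, 8.24 and 8.32 in dermis and 4.35, 4.71 and 4.30 in epidermis (3.76 ± 0.29, limma adjusted p = 0.000145). Zeb1 and Zeb2, repressors of epithelial genes, differed by 2.56 ± 0.31 and 1.69 ± 0.32. The 2 other probe sets of Zeb1 differed by only 0.25 and 0.37, and its call was lost when its probe sets were averaged.

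Some gene lists held few calls or none. Of 27 skeletal muscle genes tested, limma called none, and none had an unadjusted p under 0.05, at a median of −0.54. Acta1, skeletal actin, read 10.50, 3.73 and 4.78 in dermis, 3.78, 9.25 and 7.24 in epidermis and 8.68, 4.79 and 10.44 in whole skin, so it varied widely between arrays of each tissue. The highest layer arrays were dermis replicate 1 and epidermis replicate 2. Without dermis replicate 1 alone, 6 were called higher in epidermis, and without both, 6 of the 27 were called higher in epidermis and none in dermis, at a median of −1.45. Of 5 tested neutrophil and blood genes, 1 was called, S100a9, higher in epidermis, and 2 without epidermis replicate 2. DNA replication and mitosis genes were called higher in epidermis in 3 of 24 (Rrm2, Ccna2 and Kif11), against 6.83% of all genes, with a median of −0.22. Rrm2, a subunit of ribonucleotide reductase, read 9.85, 9.75 and 10.21 in epidermis and 8.96, 8.36 and 8.81 in dermis (−1.23 ± 0.26, limma adjusted p = 0.0089). The adjusted p of Ccna2 and Kif11 rose to 0.112 and 0.11 with 1 array left out. Of 26 respiratory chain genes 3 were called higher in dermis, against 12.7% of all genes, a count that lay between 0 and 8 with 1 array left out, and of 18 immediate-early and stress genes 1, Fos, was called higher in epidermis (−1.34 ± 0.35, with an adjusted p of up to 0.0854).

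The same contrast in the 6 arrays of transgenic dermis and epidermis, which share no array with the wild-type comparison, gave the same sign for 95.4% of the genes called higher in wild-type dermis and 95.5% of those called higher in wild-type epidermis, against 72% of all tested genes. Of the 1746 and 938, 977 and 489 were called in the same direction there, where 2374 genes were called, 1457 of them higher in dermis, and 2 and 1 were called in the opposite direction. A direct test of whether the layer difference itself differed between genotypes, over the 12 arrays, called 3 of 13739 genes (0.0218%), Gem, Krt15 and Prr9, while 1101 had an unadjusted p under 0.05. In wild-type skin Krt15 differed by 0.22, Gem by −0.26 and Prr9 by −2.52.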

How the data were processed

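Skin tissues of wild-type and K14NICDER mice were profiled on 18 Affymetrix mouse arrays, 3 for each of 6 groups, and the 6 arrays of wild-type dermis and epidermis were compared here. Tissue was kept in RNAlater, per the labels' protocols, RNA was purified with RNeasy Mini columns, and cDNA was made with the WT Ovation Pico system and labelled with biotin. The deposited values are log2 signals made by the authors with MAS5, per the submitters' processing notes, with a version not given in the sources used here. That the scale is log2 was read from the values themselves: in linear form, each array has a trimmed mean near 99. MAS5 scales each array by itself and gives dim probe sets widely scattered values, so differences against a dim layer are imprecise in size.

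Samples were grouped by their labels. Of 45037 probe sets, 34945 carried 1 gene symbol, 932 several and 9160 none in the platform annotation, and those with 1 symbol were used. Where a gene had several, the brightest by its mean on the 18 arrays stood for it, and genes below the 30th percentile of these means (log2 3.15) were left out, which left 13739 of 18193. Dermis and epidermis were compared with limma 3.58.1 in R 4.3.3 (lmFit and eBayes with trend, 4 residual degrees of freedom), and p-values were adjusted by Benjamini-Hochberg over all genes tested. A gene is said to be called where the adjusted p is under 0.05. No exact permutation test of 3 against 3 arrays can give a two-sided p below 0.1. The difference of the layer difference between genotypes was fitted on the 12 arrays of separated layers. The code was tested on simulated data. Tables and figures were made with Python 3.11.15, pandas 2.3.3 and matplotlib 3.10.9.

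The members and the 45 gene lists were chosen with earlier results of these data known. The genes named are the 12 in each direction with the largest difference after 16 was added to the linear signal, among those called both ways and without overlap, up to 5 called members of each list by adjusted p, a short set of classic markers whatever their result, and the longest runs of neighbouring called genes. Genes named beyond this, such as Tgm5, Mmp9, Krt6b, Egfr, Hoxa7 and Cebpa, were chosen after their values were seen. The number of arrays limits the precision: the median SE of a called difference was 0.356.

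Deviations of same-numbered dermis and epidermis arrays from their group means correlated at 0.024, −0.0677 and 7.65e-05, so the numbers were not taken to pair the arrays. The alternatives tried were all 18 or the 12 separated-layer arrays in 1 fit, the replicate number as a block, 16 added on the linear scale, quantile normalization, a common 75th percentile, other filters, other rules for probe sets, no trend, and each array left out.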

Additional observations from a re-analysis of the deposited data

Results flagged for a closer look

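The layer difference of 3 genes differed between transgenic and wild-type skin in a limma interaction test over the 12 arrays of separated layers (adjusted p = 0.0424 for each gene). For Krt15, a keratin of basal cells and the follicle bulge, dermis minus epidermis was 0.22 in wild-type and 3.52 in transgenic skin, a change of 3.29 ± 0.49. For Prr9, a gene of the epidermal differentiation complex, it was −2.52 and 1.75, a change of 4.26 ± 0.63. For Gem, a small GTPase gene, it was −0.26 and 2.46, a change of 2.72 ± 0.40. These calls were not firm: the test called 0 genes after quantile normalization, 1 with the replicate number as a block, and 0 in 6 of the 12 fits with 1 array left out.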

How the results depend on the processing

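Against 2684 genes called, 1746 higher in dermis and 938 in epidermis, fitting all 18 arrays together called 4035, with 1442 in epidermis, where whole skin scattered least (median SD 0.177). Testing every probe set by itself called 4972, with 2651 in dermis and 2321 in epidermis. With 1 array left out the total lay between 1253 and 4040, the dermal count between 830 and 2496 and the epidermal count between 423 and 1544. The other 9 settings called 2150 to 3015 genes. The dermal share of the calls was 65.1%, and it fell to 51.3% when a gene's probe sets were averaged and to 53.3% when each was tested apart. The median difference over all genes was 0.05, and 0.129 after quantile normalization, 0.1 with a common 75th percentile, −0.096 with no filter and −0.0929 with averaged probe sets.

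With the replicate number as a block, which the labels do not tie to an animal, 2716 genes were called, 2441 of them shared with the calls made without it, and the interaction test called 1 gene. That test called 3 genes as reported, 42 in a fit of all 18 arrays, 9 with 16 added, 0 after quantile normalization, and 0 to 54 with 1 array left out (54 without transgenic dermis replicate 1 and 15 without epidermis replicate 2). Of the genes named, Cd151 (−0.0161) and Pck1 (−0.23) turned sign with averaged probe sets. In that setting 17 others lost their call, among them Zeb1, Fbln5, Nid1, Fzd2 and Tgfbr2, and 2 gained one. The cause of these changes was not tested.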
